A study of Zea mays with 48 samples.

Results

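The circadian clock genes cca1 (Zm00001d049543), lhy (Zm00001d024546), gi1 (Zm00001d008826) and gi2 (Zm00001d039589) of maize were followed through 4 tissues and 4 temperature conditions. They were chosen by identifier and not by a cut on their values, though with earlier results of these data known. They are 4 of the 46430 identifiers counted. The plants were B73 seedlings, an inbred line, with 3 leaves, raised at 26 °C under a 14 h day and 10 h night. RNA was taken from leaf, from root, and from the top and the bottom part of the crown, the zone where shoot and root join. Control plants had shoot and root at 26 °C. Whole-plant chilling held both at 4 °C, and shoot-only chilling held the shoot at 4 °C above a root at 26 °C. Root-only chilling held the root at 0 °C below a shoot at 26 °C. All 3 chilling treatments lasted 24 h. The chilled root was thus colder under root-only than under whole-plant chilling, and the labels do not say which temperature reached the crown under the local treatments. Each of the 16 groups had 3 libraries, described as biological repeats, and whether a library held 1 plant or a pool is not stated. The p-values rest on the spread between the samples as deposited. In whole tissue, fewer cells of a type and less RNA per cell cannot be told apart.

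Plant clocks are built from genes that repress each other and peak at different times of day. In Arabidopsis, CCA1 and LHY are closely related Myb-type transcription factors whose transcripts peak around dawn and which repress genes expressed in the evening. GIGANTEA, a large plant-specific protein whose transcript peaks late in the day in Arabidopsis, is among the genes they repress; it binds the photoreceptor and protein-degradation factor ZEITLUPE and promotes photoperiodic flowering. Maize carries a pair of GIGANTEA genes, gi1 and gi2, and gi1 acts in its flowering and growth. In Arabidopsis the clock also gates cold-response genes, and cold damps the daily cycling of many clock transcripts. A clock transcript therefore has a level that depends on the hour of sampling. The labels give no hour, so a difference between conditions in level cannot be told apart from a difference in phase.

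Libraries held 3449880 to 8633854 counts, from a method that reads the 3′ end of transcripts, so counts do not scale with transcript length. Levels are in CPM, counts scaled to a fixed library size, on a tissue's own scaling unless stated otherwise. All adjusted p-values are from edgeR's quasi-likelihood test with Benjamini-Hochberg adjustment over every gene tested, and a gene was called where that value was under 0.05. All 4 genes passed the low-count filter in all 4 tissues, among 15845 genes tested in leaf, 17706 in top crown, 18779 in bottom crown and 18831 in root. The files pair no nuclear identifier with a name, so tissue labels could not be checked against nuclear marker genes. Plastid identifiers took 0.00768% to 0.0538% of counts in leaf, 0.00175% to 0.00544% in top crown, 0.000691% to 0.00453% in bottom crown and 0.000252% to 0.00129% in root.

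Libraries numbered 3 tended to lie low in cca1 and lhy and high in gi1. They had the lowest lhy of their group in 14 of 16 groups, with a median deviation from the group mean of -0.40 on the log2 scale, and the lowest cca1 in 10 of 16 groups, with a median deviation of -0.38. They lay above the group mean of gi1 in 16 of 16 groups, by a median of 0.22. For gi2 they lay above it in 10 of 16 groups, by a median of 0.17. How often other genes had their lowest or highest library under number 3 was not computed, so these counts do not set the 4 genes apart. Over all genes, 38 of 48 libraries correlated best on average with their own number within their tissue. The labels do not say what the replicate number stands for. With all libraries numbered 3 left out, an alternative added after seeing the data, each of the 48 comparisons of a member with control kept its side of the threshold. Called changes kept their direction, and 4 that were not called turned: cca1 in leaf under root-only chilling (from -0.07 to 0.02) and, under whole-plant chilling, lhy in top crown (from -0.22 to 0.02), cca1 in bottom crown (from -0.06 to 0.39) and gi1 in root (from 0.21 to -0.21).

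**Figure D1:**
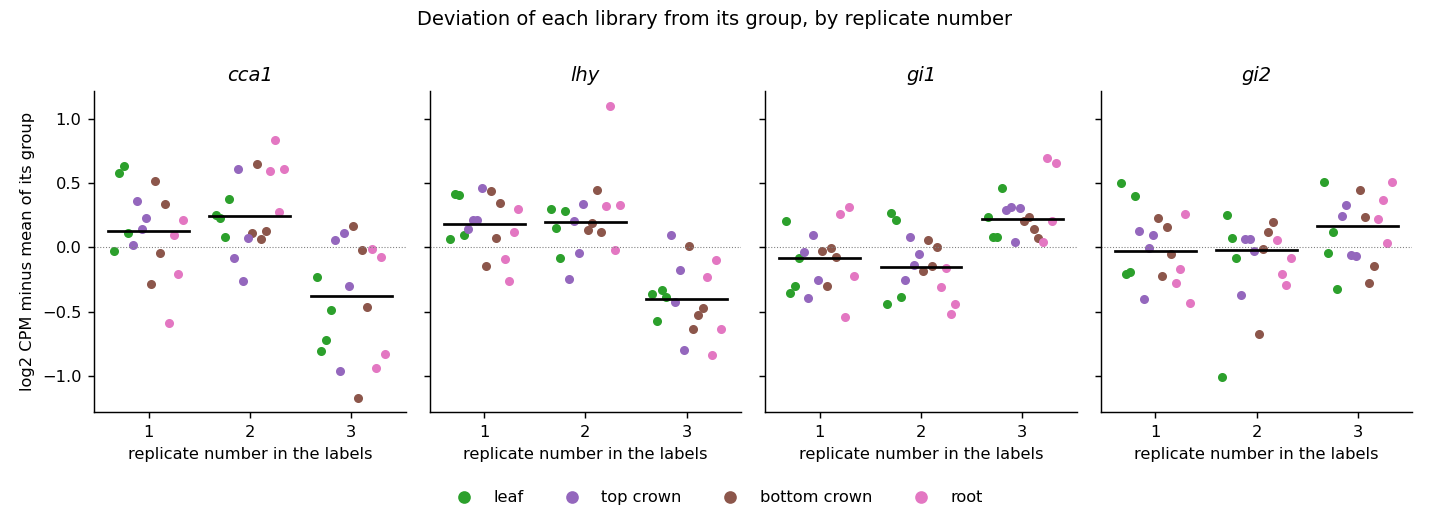
Deviation of each library from its group mean in log2 CPM (vertical axis) by replicate number (horizontal axis), with 1 panel per gene, colour for tissue and a bar at the median of the 16 groups. Replicate 3 lies low for lhy (median -0.40) and cca1 (median -0.38) and high for gi1 (median 0.22).

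In leaf all 4 genes changed when the shoot was cold: cca1 and lhy fell and gi1 and gi2 rose. This held for whole-plant chilling, where 30.1% of all genes tested were called, and for shoot-only chilling, where 29.4% were. Under root-only chilling, with the leaf at 26 °C, gi2 alone of the 4 was called, where 47.1% of all genes were. The background shares are large, so a call by itself sets no member apart from the other genes. Ranked by the size of the change among all genes tested, gi2 stood at the 97.5th percentile under whole-plant and at the 97.7th under shoot-only chilling, gi1 at 81.1 and 77.4, cca1 at 86 and 85.1, and lhy at 76.8 and 75.

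**Figure D2:**
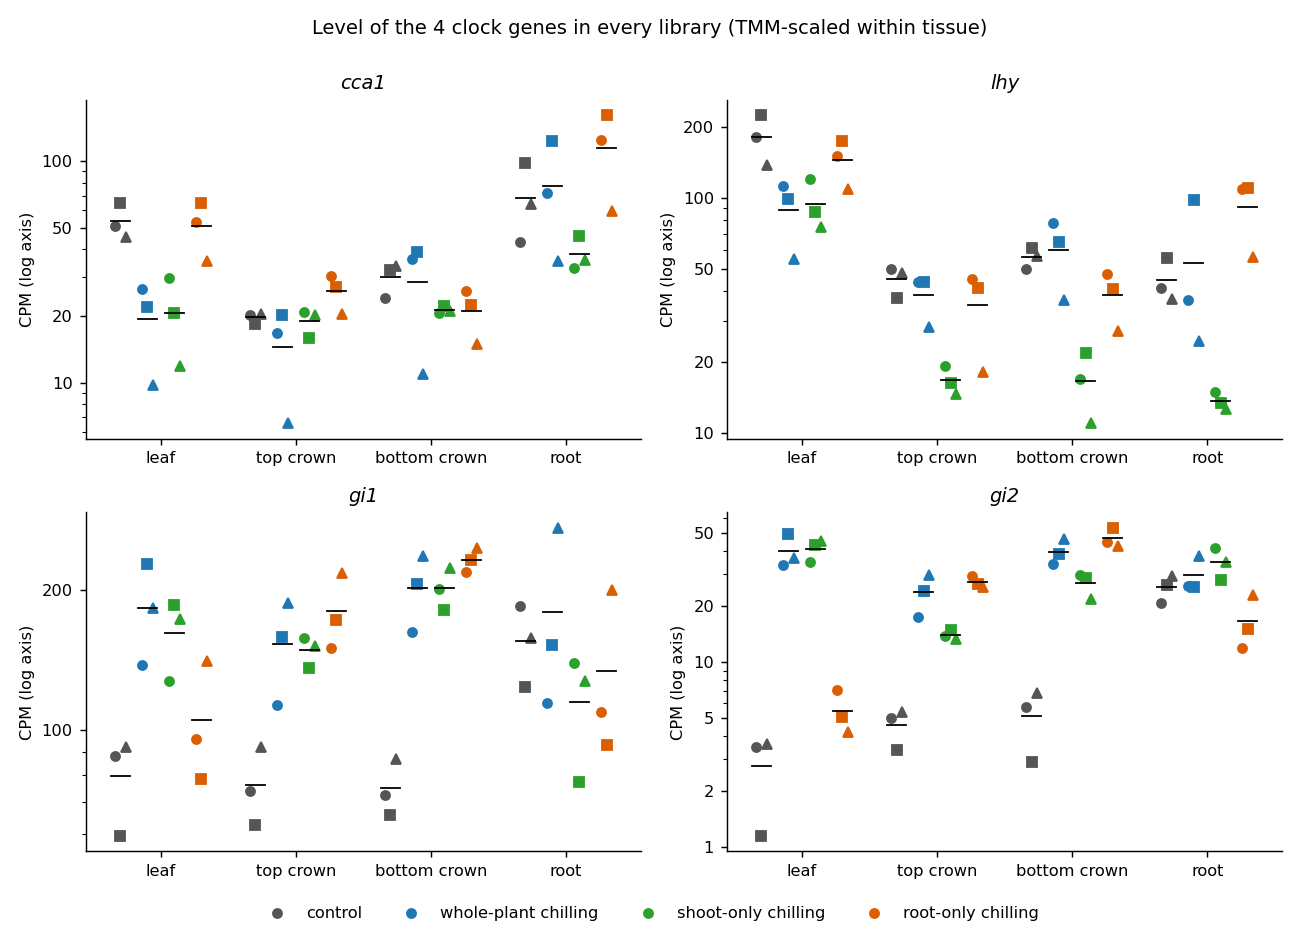
Level of each gene in CPM on a log axis (vertical) in the 4 conditions of each tissue (horizontal), with circles, squares and triangles for replicates 1, 2 and 3 and a black bar at the group mean. gi2 in leaf lies at 1.14 to 3.59 CPM in control and at 33.6 to 49.1 CPM under whole-plant and shoot-only chilling, and lhy lies below control in every tissue under shoot-only chilling.

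Of the morning pair, lhy measured 179.8, 223.4 and 137.7 CPM in control leaf (replicates 1, 2 and 3). Whole-plant chilling gave 111.9, 99.0 and 54.9 CPM and shoot-only chilling 120.0, 87.2 and 74.7 CPM. Root-only chilling gave 150.6, 173.1 and 108.6 CPM. Every library from a cold leaf lay below every control library, while the warm leaf of root-chilled plants overlapped with control. lhy fell by 1.02 ± 0.26 (SE) on the log2 scale under whole-plant chilling, to 0.492 of control (adjusted p = 0.0063). It fell by 0.94 ± 0.26 under shoot-only chilling (adjusted p = 0.011). The second call rested on single libraries: the change was -0.74 (adjusted p = 0.065) without control replicate 2 and -0.80 (adjusted p = 0.058) without shoot-only replicate 3. Under root-only chilling the difference was -0.32 ± 0.26 (adjusted p = 0.32).

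The level of cca1, the other Myb-type factor of the morning pair, was 50.8, 65.0 and 45.4 CPM in control leaf. It was 26.4, 22.0 and 9.77 CPM under whole-plant and 29.6, 20.6 and 11.9 CPM under shoot-only chilling. Root-only chilling left 53.0, 64.5 and 35.3 CPM. Cold leaves again did not overlap with control, and warm leaves over a chilled root did. cca1 fell by 1.46 ± 0.36 on the log2 scale under whole-plant chilling, to 0.362 of control (adjusted p = 0.007), and by 1.36 ± 0.36 under shoot-only chilling (adjusted p = 0.01). The root-only difference was -0.07 ± 0.33 (adjusted p = 0.88).

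For gi1, the GIGANTEA gene with the higher counts of the pair, control leaf gave 88.0, 59.3 and 92.3 CPM. Whole-plant chilling gave 138.5, 227.7 and 183.7 CPM and shoot-only chilling 127.5, 185.7 and 173.5 CPM. Leaves over a chilled root gave 95.9, 78.6 and 141.2 CPM. Cold leaves lay above every control leaf, and warm leaves over a chilled root overlapped with control. gi1 rose by 1.19 ± 0.24 on the log2 scale, or 2.29-fold, under whole-plant chilling (adjusted p = 0.00075) and by 1.02 ± 0.24, or 2.03-fold, under shoot-only chilling (adjusted p = 0.0029). The root-only difference of 0.39 ± 0.24 (adjusted p = 0.18) depended on scaling: with library size alone it was 0.80 (adjusted p = 0.0028), where the median of all genes moved to 0.48.

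gi2, the lower-count GIGANTEA gene, was at 3.48, 1.14 and 3.59 CPM in control leaf, from 17, 4 and 16 counts. It was at 33.6, 49.1 and 36.7 CPM under whole-plant chilling and at 34.8, 42.9 and 45.1 CPM under shoot-only chilling. The lowest cold leaf exceeded the highest control leaf. gi2 rose 13.8-fold under whole-plant chilling (log2 change 3.79 ± 0.29, adjusted p = 4.7e-09) and 14.2-fold under shoot-only chilling (3.83 ± 0.29, adjusted p = 4e-09). Root-only chilling gave 7.02, 5.03 and 4.21 CPM, all above control but far below the cold leaf. This smaller rise of 0.94 ± 0.33, or 1.91-fold, was called (adjusted p = 0.024) and stood at the 63.8th percentile by size. Without control replicate 2 it was 0.65 (adjusted p = 0.11), without root-only replicate 1 it was 0.73 (adjusted p = 0.1), and with just the 6 libraries compared it was 0.92 (adjusted p = 0.051).

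**Figure D3:**
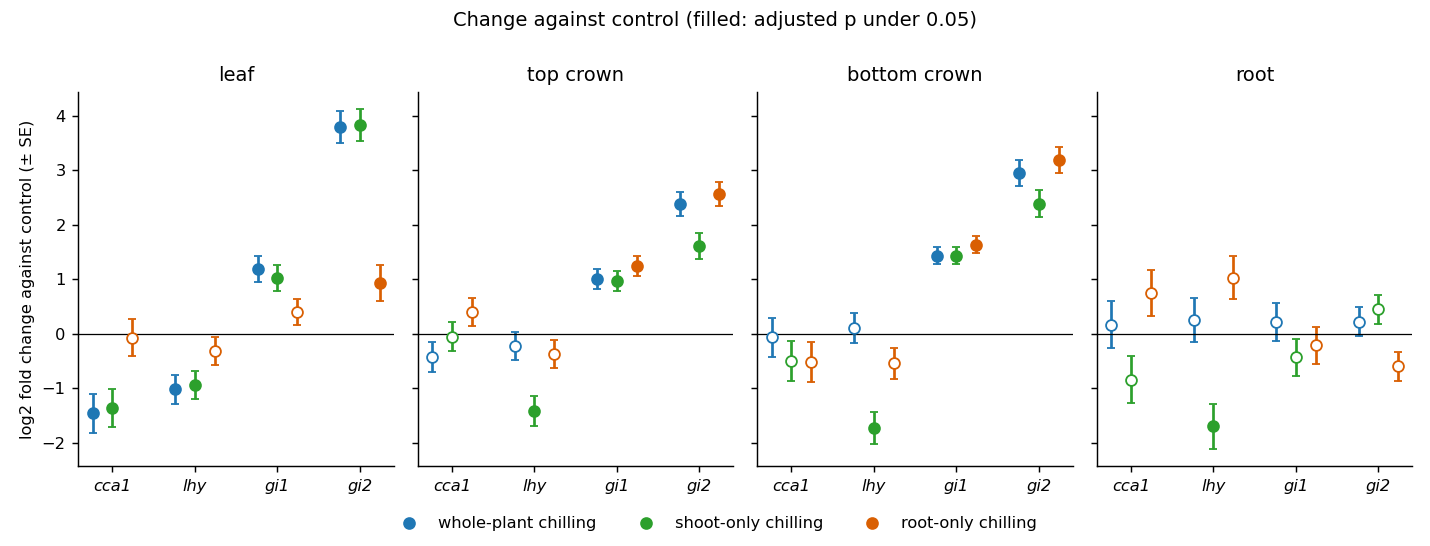
Log2 change from control (vertical axis) of each gene (horizontal axis) in each tissue and chilling condition, with bars of ± 1 SE and filled points for an adjusted p under 0.05. The changes of gi2 in leaf and crown lie from 0.94 to 3.83 and are all filled, and those of lhy under shoot-only chilling lie from -1.73 to -0.94 and are all filled.

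Direct comparison of the chilling conditions in leaf separated the cold leaf from the warm one. The contrast of whole-plant with shoot-only chilling, in which both leaves were cold, called 0 of the 4 genes and 0.0694% of all genes tested; the 4 differences ran from -0.10 to 0.18 on the log2 scale with SEs of 0.22 to 0.37. At an unadjusted p under 0.05 the edgeR count of members was also 0, and DESeq2 called 0. Both cold-leaf conditions against root-only chilling called all 4 genes, where 58% (whole-plant) and 58.4% (shoot-only) of all genes were called. gi2 was 7.23-fold higher in whole-plant than in root-only chilling (log2 difference 2.85 ± 0.25, adjusted p = 6.1e-09) and 7.44-fold higher in shoot-only than in root-only chilling (2.90 ± 0.25, adjusted p = 4.8e-09). cca1 was lower in both, with a log2 difference of -1.39 ± 0.36 in the whole-plant comparison (adjusted p = 0.0041) and of -1.29 ± 0.35 in the shoot-only one (adjusted p = 0.0061).

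The other leaf differences against root-only chilling were smaller and less stable. lhy differed by -0.70 ± 0.26 for whole-plant chilling (adjusted p = 0.028), with libraries that overlapped. It was -0.44 (adjusted p = 0.13) without whole-plant replicate 3, -0.71 without root-only replicate 1 and -0.55 without root-only replicate 2, none of them called, and -1.33 (called) with library size alone. For shoot-only chilling lhy differed by -0.62 ± 0.26, with an adjusted p just under 0.05. That call was lost at -0.61 without control replicate 1 or whole-plant replicate 2, -0.60 without root-only replicate 1, -0.56 without shoot-only replicate 2 and -0.47 without shoot-only replicate 3 or root-only replicate 2. gi1 differed by 0.80 ± 0.23 for whole-plant (adjusted p = 0.0069) and by 0.63 ± 0.23 for shoot-only chilling (adjusted p = 0.029). With library size alone these were 0.17 and 0.05 and not called. The second was also lost without shoot-only replicate 2 (0.53) or 3 (0.58) and without root-only replicate 1 (0.55) or 2 (0.45).

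In both crown parts the GIGANTEA pair rose under all 3 chilling conditions, and of the morning pair lhy fell under shoot-only chilling. Called members in top crown numbered 2 of 4 under whole-plant, 3 of 4 under shoot-only and 2 of 4 under root-only chilling, where 36.2%, 23.9% and 35.9% of all genes tested were called. In bottom crown they were also 2, 3 and 2 of 4, beside 35%, 26.2% and 39.4% of all genes. Among all genes tested, the size of the gi2 change stood between the 96.9th and the 98.9th percentile in these 6 comparisons, and that of gi1 between 81.2 and 94.5. The shoot-only change of lhy stood at 95.3 in top crown and 96.7 in bottom crown, near that of gi2.

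In control top crown gi2 read 4.96, 3.34 and 5.37 CPM. Whole-plant chilling gave 17.4, 24.4 and 29.6 CPM, a 5.19-fold rise (log2 change 2.38 ± 0.22, adjusted p = 3.1e-07). Shoot-only chilling gave 13.8, 14.8 and 13.3 CPM, a 3.06-fold rise (1.61 ± 0.23, adjusted p = 0.00011). Chilled libraries did not overlap with control in either condition. Under root-only chilling gi2 reached 29.1, 26.5 and 25.4 CPM, a 5.90-fold rise (2.56 ± 0.22, adjusted p = 6.7e-08), so the level was lowest of the chilled conditions where the root was warm. Shoot-only chilling was lower than root-only chilling by a log2 difference of -0.95 ± 0.20 (adjusted p = 0.0017). Whole-plant exceeded shoot-only chilling by 0.76 ± 0.20 (adjusted p = 0.0088), a call that ended without whole-plant replicate 3 (0.59) and without all libraries numbered 3 (0.56). Whole-plant and root-only chilling were not called different (-0.18 ± 0.19, adjusted p = 0.51).

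Bottom crown gave the same order for gi2. Control libraries were at 5.68, 2.89 and 6.80 CPM. Whole-plant chilling gave 33.8, 38.6 and 46.5 CPM, a 7.71-fold rise (log2 change 2.95 ± 0.24, adjusted p = 4e-07), and root-only chilling 44.5, 53.3 and 42.2 CPM, a 9.10-fold rise (3.19 ± 0.24, adjusted p = 8.4e-08). Shoot-only chilling gave 29.7, 28.7 and 21.9 CPM, a 5.23-fold rise (2.39 ± 0.24, adjusted p = 8.9e-06). No chilled library fell within the control range. gi2 was lower in shoot-only than in root-only chilling by a log2 difference of -0.80 ± 0.21 (adjusted p = 0.0076). The difference between whole-plant and shoot-only chilling, 0.56 ± 0.21 (adjusted p = 0.042), rested on single libraries: it was not called without control replicate 1 (0.56), whole-plant replicate 2 (0.58) or 3 (0.43), or shoot-only replicate 1 (0.64), 2 (0.61) or 3 (0.44), nor at 0.33 without all libraries numbered 3.

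The paralog gi1 rose in the crown as well, at smaller folds than gi2. In top crown it was at 73.9, 62.6 and 92.2 CPM in control, and chilling gave 113.5, 159.0 and 188.1 (whole-plant), 158.0, 136.3 and 151.9 (shoot-only) and 150.7, 172.7 and 217.9 CPM (root-only). All 9 chilled libraries exceeded all 3 control libraries. The rises were 2.01-fold (log2 change 1.01 ± 0.19, adjusted p = 0.00039), 1.95-fold (0.96 ± 0.19, adjusted p = 0.0013) and 2.37-fold (1.24 ± 0.19, adjusted p = 4.9e-05). In bottom crown control gave 72.6, 65.8 and 86.8 CPM, and the chilled libraries ran from 163.1 to 246.5 CPM, again without overlap. The rises there were 2.69-fold under whole-plant (1.43 ± 0.16, adjusted p = 5.6e-06), 2.69-fold under shoot-only (1.43 ± 0.16, adjusted p = 1.5e-05) and 3.1-fold under root-only chilling (1.63 ± 0.16, adjusted p = 9.9e-07). None of the 6 direct comparisons of gi1 between chilling conditions in the crown was called.

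lhy in top crown measured 49.9, 37.4 and 47.7 CPM in control and 19.4, 16.4 and 14.7 CPM under shoot-only chilling. The shoot-chilled libraries all lay below control, and lhy fell to 0.375 of control (log2 change -1.42 ± 0.28, adjusted p = 0.002). Whole-plant chilling, which also held the shoot at 4 °C, gave 43.7, 43.7 and 28.3 CPM (change -0.22 ± 0.26, adjusted p = 0.53). Root-only chilling gave 45.3, 41.2 and 18.2 CPM (-0.37 ± 0.26, adjusted p = 0.29). Both of these overlapped with control, and in each the library numbered 3 was the lowest. Compared directly, whole-plant exceeded shoot-only chilling by 1.19 ± 0.28 (adjusted p = 0.0056). Shoot-only lay below root-only chilling by a difference of -1.05 ± 0.28 (adjusted p = 0.013), a call that ended without shoot-only replicate 3 (-0.96), root-only replicate 1 (-0.79) or root-only replicate 2 (-0.92).

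In bottom crown lhy was at 49.9, 61.3 and 56.5 CPM in control and at 17.0, 22.0 and 11.03 CPM under shoot-only chilling. This was a fall to 0.301 of control with no overlap (log2 change -1.73 ± 0.30, adjusted p = 0.0013). Whole-plant chilling gave 77.9, 64.8 and 36.8 CPM (0.10 ± 0.28, adjusted p = 0.81), 2 libraries above and 1 below the control range. Root-only chilling gave 47.5, 40.8 and 27.2 CPM, all below control, yet the difference of -0.54 ± 0.28 was not called (adjusted p = 0.15). lhy was 3.57-fold higher in whole-plant than in shoot-only chilling (1.84 ± 0.30, adjusted p = 0.00042). It was also lower in shoot-only than in root-only chilling (-1.19 ± 0.30, adjusted p = 0.0088).

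cca1 was not called against control in either crown part. In top crown it read 20.2, 18.4 and 20.5 CPM in control and 20.8, 15.8 and 20.3 CPM under shoot-only chilling (log2 difference -0.06 ± 0.27, adjusted p = 0.9). Whole-plant chilling gave 16.8, 20.1 and 6.53 CPM (-0.43 ± 0.27, adjusted p = 0.23) and root-only chilling 30.2, 27.0 and 20.4 CPM (0.40 ± 0.26, adjusted p = 0.25). Each of these groups overlapped with control. In bottom crown control gave 24.2, 32.2 and 33.7 CPM. Shoot-only chilling gave 20.7, 22.2 and 21.0 CPM, all below control, while whole-plant chilling (36.0, 39.0 and 10.9 CPM) and root-only chilling (25.9, 22.3 and 14.9 CPM) overlapped with it. The differences from control there were -0.06 ± 0.36, -0.50 ± 0.37 and -0.52 ± 0.37 under whole-plant, shoot-only and root-only chilling (adjusted p = 0.91, 0.35 and 0.29). The shoot-only difference was called with just the 6 libraries compared (-0.52, adjusted p = 0.025), and the root-only one without whole-plant replicate 3 (-0.52, adjusted p = 0.04). One direct comparison was called, in top crown between whole-plant and root-only chilling (-0.83 ± 0.27, adjusted p = 0.031). It was lost without whole-plant replicate 3 (-0.47), root-only replicate 1 (-0.69) or root-only replicate 2 (-0.80), with just the 6 libraries compared (-0.85) and without all libraries numbered 3 (-0.62). In bottom crown the differences of whole-plant from shoot-only (0.44 ± 0.37) and root-only chilling (0.46 ± 0.37) were not called, but without whole-plant replicate 3 they were 0.81 (adjusted p = 0.0064) and 0.84 (adjusted p = 0.01), both called.

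Counts of called members in the direct comparisons of the crown were as follows. In top crown they were 2 of 4 for whole-plant against shoot-only, 1 of 4 for whole-plant against root-only and 2 of 4 for shoot-only against root-only chilling, beside 25.8%, 26.9% and 23.2% of all genes tested. In bottom crown they were 2, 0 and 2 of 4, beside 39.6%, 23.7% and 34.1% of all genes. For the comparison with 0 called, lhy alone had an unadjusted edgeR p under 0.05 (0.65 ± 0.28, adjusted p = 0.12), and DESeq2 called 0. With the replicate number as a block, which pairs the libraries of these 2 conditions, lhy was called (0.62, adjusted p = 0.036), as it was without whole-plant replicate 3 (0.90, adjusted p = 0.018) and without all libraries numbered 3 (0.71, adjusted p = 0.044). The called members of the comparisons with shoot-only chilling were lhy and gi2 in both crown parts.

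In root 1 of the 12 comparisons with control was called, and it was in roots that were not chilled. Under shoot-only chilling, with the root at 26 °C, lhy was at 15.0, 13.5 and 12.7 CPM against 41.4, 55.2 and 37.3 CPM in control. The groups did not overlap, and lhy fell to 0.308 of control (log2 change -1.70 ± 0.42, adjusted p = 0.01), at the 91.1th percentile by size. The share of all genes called was 22.3% there, 29.3% under whole-plant and 7.62% under root-only chilling. lhy thus fell under shoot-only chilling in each of the 4 tissues.

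When the root itself was chilled, 0 of 4 members were called by edgeR or by DESeq2, and at an unadjusted p under 0.05 edgeR counted 0 under whole-plant and 2 (lhy and gi2) under root-only chilling. For lhy, whole-plant chilling gave 36.7, 97.6 and 24.7 CPM, which spanned the control range (0.25 ± 0.40, adjusted p = 0.67). Root-only chilling at 0 °C gave 108.3, 109.3 and 55.9 CPM of lhy, all above control, with a difference of 1.03 ± 0.39 (adjusted p = 0.15). This difference was called with just the 6 libraries compared (1.04, adjusted p = 0.036), with all 48 libraries in 1 fit (1.05, adjusted p = 0.043) and without whole-plant replicate 2 (1.03). Between chilling conditions, lhy under shoot-only lay 6.63-fold below that under root-only chilling (log2 difference -2.73 ± 0.43, adjusted p = 0.00021) with no overlap. Whole-plant exceeded shoot-only chilling by 1.95 ± 0.42 (adjusted p = 0.0016), and by 1.15 without whole-plant replicate 2, still called.

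In root cca1 had 43.3, 98.2 and 64.3 CPM in control and 32.9, 45.9 and 35.8 CPM under shoot-only chilling (log2 difference -0.84 ± 0.43, adjusted p = 0.18). Whole-plant chilling gave 72.1, 123.8 and 35.3 CPM (0.17 ± 0.42, adjusted p = 0.8) and root-only chilling 124.5, 161.7 and 59.7 CPM (0.75 ± 0.42, adjusted p = 0.37). All 3 chilled groups overlapped with control. The shoot-only difference was called with just the 6 libraries compared (-0.87, adjusted p = 0.028). Shoot-only chilling was 3.01-fold lower than root-only chilling (-1.59 ± 0.43, adjusted p = 0.01), with no overlap, so the morning pair differed the same way between these conditions. Whole-plant exceeded shoot-only chilling by 1.01 ± 0.43 (adjusted p = 0.064), which DESeq2 called (1.03, adjusted p = 0.043). It was also called with the replicate number as a block, which pairs the libraries of these 2 conditions (0.87, adjusted p = 0.019), and without whole-plant replicate 3 (1.37), root-only replicate 3 (1.01) or control replicate 2 (1.04).

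The GIGANTEA pair was not called in root against control under any condition. gi2 had 20.8, 26.3 and 29.4 CPM in control, 25.7, 25.6 and 37.6 CPM under whole-plant and 41.4, 27.9 and 34.98 CPM under shoot-only chilling (0.22 ± 0.26 and 0.44 ± 0.26, adjusted p = 0.56 and 0.24). Root-only chilling gave 11.98, 15.2 and 23.2 CPM (-0.60 ± 0.26, adjusted p = 0.22). Each group overlapped with control. Shoot-only exceeded root-only chilling 2.06-fold (1.05 ± 0.27, adjusted p = 0.0062) without overlap, the opposite order to that in the crown. For gi1, control gave 185.4, 123.7 and 158.1 CPM, and the chilled libraries ran from 77.6 CPM (shoot-only replicate 2) to 272.6 CPM (whole-plant replicate 3). The gi1 differences from control were 0.21 ± 0.34, -0.44 ± 0.35 and -0.21 ± 0.34 under whole-plant, shoot-only and root-only chilling (adjusted p = 0.68, 0.39 and 0.81).

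Called members in the direct comparisons of root were lhy for whole-plant against shoot-only chilling (1 of 4, beside 51.2% of all genes) and cca1, lhy and gi2 for shoot-only against root-only chilling (3 of 4, beside 37.6%). Whole-plant against root-only chilling called 0 of 4, beside 14% of all genes tested. The nearest to the threshold there was gi2, 0.82 ± 0.27 higher in whole-plant chilling with no overlap (adjusted p = 0.054). At an unadjusted edgeR p under 0.05 the count was 1, gi2. DESeq2 called it (0.85), and so did edgeR with no low-count filter (0.79), with all 48 libraries in 1 fit (0.83), and without whole-plant replicate 1 (0.91) or 2 (0.92) or root-only replicate 3 (1.13). lhy differed there by -0.78 ± 0.40 (adjusted p = 0.21), and by -1.58 (adjusted p = 0.0033, called) without whole-plant replicate 2.

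Levels in control plants differed between tissues in a gene-specific order, measured in 1 fit of all 48 libraries on its own scaling. lhy averaged 296.8 ± 66.4 CPM (SD, n = 3) in leaf, 48.6 ± 4.79 in bottom crown, 38.7 ± 8.13 in root and 36.7 ± 5.23 in top crown. Leaf stood apart, from 6.09-fold above bottom crown (log2 difference 2.61 ± 0.36, adjusted p = 7.5e-08) to 8.07-fold above top crown (3.01 ± 0.37, adjusted p = 3.5e-09), and the differences among the other tissues were not called. cca1 averaged 88.4 ± 15.0 CPM in leaf, 59.5 ± 24.1 in root, 26.1 ± 4.26 in bottom crown and 16.1 ± 0.827 in top crown. The neighbours leaf and root were not called different (0.57 ± 0.41, adjusted p = 0.22), nor were the crown parts (adjusted p = 0.19), while root exceeded top crown 3.70-fold (adjusted p = 0.00019) and bottom crown 2.28-fold (adjusted p = 0.015). The last call was lost without root control replicate 2 (log2 difference of bottom crown from root -0.83) or bottom crown control replicate 1 (-1.06).

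gi2 had its highest control level in root, at 22.1 ± 3.84 CPM (SD, n = 3), against 4.55 ± 2.35 in leaf, 4.46 ± 1.74 in bottom crown and 3.72 ± 0.868 in top crown. Root exceeded leaf 4.68-fold, bottom crown 4.95-fold and top crown 5.91-fold (adjusted p = 4.3e-08, 1e-09 and 5.7e-11), and the lower 3 tissues were not called different from each other. gi1 was at 135.0 ± 26.4 CPM in root and 132.2 ± 32.0 in leaf (adjusted p = 0.94), and at 65.3 ± 8.94 in bottom crown and 62.3 ± 12.3 in top crown (adjusted p = 0.87). Root exceeded top crown 2.17-fold (adjusted p = 0.00042) and bottom crown 2.07-fold (adjusted p = 0.0013). Leaf exceeded top crown by 1.09 ± 0.28 (adjusted p = 0.00061) and bottom crown by 1.02 ± 0.27 (adjusted p = 0.0014) on the log2 scale.

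Control comparisons that involve leaf moved with the scaling. With library size alone the median log2 difference of all genes, leaf against top crown, bottom crown and root, went from -0.08, -0.31 and -0.38 to -1.21, -1.41 and -1.43. On that scale gi1 in leaf was at -0.06 against top crown and -0.09 against bottom crown, so its direction turned, gi1 in leaf against root went from -0.03 to -1.07 and was called (adjusted p = 0.00026), gi2 in leaf turned to -0.81 and -1.02 against the crown parts (both called), and cca1 in leaf against bottom crown was 0.66 and not called. lhy stayed higher in leaf than in the 3 other tissues on both scales, at 1.51 to 1.88 with library size alone. Called members numbered 3 of 4 for leaf against top crown (65.4% of all genes called), 3 of 4 for leaf against bottom crown (60.6%) and 2 of 4 for leaf against root (64.7%). They were 0 of 4 for top against bottom crown (43.2%), also at an unadjusted edgeR p under 0.05, and cca1, gi1 and gi2 for top crown against root (67.3%) and for bottom crown against root (51.4%).

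Whether a gene responded differently in different tissues was tested as the interaction of tissue and chilling in that fit, over 72 tests of the 4 genes. Of these 24 were called, 13 of 18 for gi2, 7 of 18 for gi1, 3 of 18 for lhy and 1 of 18 for cca1. Over the same 18 contrasts, 0.023% to 33.5% of all genes tested were called, so the counts for lhy and cca1 do not set these genes apart. gi2 separated root from every other tissue under every condition. Its log2 change exceeded that of root by 3.43 ± 0.40, 3.37 ± 0.39 and 1.48 ± 0.42 in leaf, by 2.16 ± 0.37, 1.21 ± 0.37 and 3.13 ± 0.37 in top crown and by 2.69 ± 0.36, 1.98 ± 0.36 and 3.75 ± 0.36 in bottom crown (whole-plant, shoot-only and root-only chilling). The largest adjusted p of these 9 was 0.016, for shoot-only chilling in top crown, and that call ended without top crown control replicate 2 (1.04). Leaf and crown also differed for gi2, in opposite directions by treatment: under shoot-only chilling the leaf response exceeded that of top crown by 2.16 ± 0.43 (adjusted p = 0.00044) and of bottom crown by 1.40 ± 0.42 (adjusted p = 0.019), and under root-only chilling it was below them, by differences of -1.66 ± 0.45 (adjusted p = 0.0043) and -2.27 ± 0.45 (adjusted p = 9.9e-05). The third of these 4 was -1.10 and not called with library size alone, and the second was lost without leaf control replicate 2 (1.10) or bottom crown control replicate 3 (1.14).

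The response of gi1 exceeded that of root in leaf under shoot-only chilling (1.43 ± 0.38, adjusted p = 0.0049), in top crown under shoot-only and root-only chilling (1.44 ± 0.38 and 1.43 ± 0.38) and in bottom crown under all 3 conditions (1.19 ± 0.38, 1.90 ± 0.38 and 1.81 ± 0.38). The whole-plant value in bottom crown was not called without root control replicate 1 (1.05) or 3 (1.17), bottom crown control replicate 1 (1.17) or 2 (1.10), root whole-plant replicate 1 (0.95) or 2 (1.07), or bottom crown whole-plant replicate 2 (1.17) or 3 (1.06). In leaf, gi1 responded less than in bottom crown to root-only chilling (-1.26 ± 0.38, adjusted p = 0.0089), but with library size alone this was -0.56 and not called.

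For the morning pair every difference called in the main fit involved root. Under root-only chilling the log2 change of lhy in leaf, top crown and bottom crown was below that in root, by differences of -1.40 ± 0.49, -1.42 ± 0.50 and -1.61 ± 0.50 (adjusted p = 0.027, 0.048 and 0.02). The leaf call was lost without leaf control replicate 2 (-1.26), leaf root-only replicate 3 (-1.24), root control replicate 1 (-1.35) or 3 (-1.29), or root root-only replicate 1 (-1.27) or 2 (-1.25), and was -1.003 with library size alone. The top crown call was lost without top crown control replicate 1 (-1.35) or 3 (-1.38), top crown root-only replicate 2 (-1.55) or 3 (-1.12), root control replicate 1 (-1.37) or 3 (-1.31), or root root-only replicate 1 (-1.29) or 2 (-1.27). The bottom crown call was lost without root control replicate 3 (-1.49), root root-only replicate 2 (-1.45) or bottom crown root-only replicate 3 (-1.40). For cca1 the whole-plant response of leaf was below that of root (-1.76 ± 0.59, adjusted p = 0.044). That call ended without leaf control replicate 1 (-1.73), 2 (-1.57) or 3 (-1.82), leaf whole-plant replicate 2 (-1.77) or 3 (-1.39), root control replicate 1 (-1.52) or 3 (-1.72), or root whole-plant replicate 1 (-1.80) or 2 (-1.24). Other settings also called differences between leaf and crown. With just the groups compared, cca1 under shoot-only chilling differed between leaf and top crown (-1.34, adjusted p = 0.0065). Under whole-plant chilling, lhy differed between leaf and bottom crown with the replicate block (-1.18, adjusted p = 0.024). For cca1 that pair differed without bottom crown whole-plant replicate 3 (-1.89, adjusted p = 0.038). The fall of lhy under shoot-only chilling differed between tissues in 0 of 6 pairs in edgeR, also at an unadjusted p under 0.05, by at most 0.75 in size with SEs of 0.50 to 0.53, which does not show equal responses.

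Called members by tissue pair, under whole-plant, shoot-only and root-only chilling, were these. Leaf against top crown had 0 (1 unadjusted, gi2), 1 and 1 of 4, beside 9.14%, 12.1% and 30% of all genes tested. Leaf against bottom crown had 0 (2 unadjusted, cca1 and lhy), 1 and 2 of 4, beside 7.06%, 14.7% and 33.5%, and leaf against root 2, 2 and 2 of 4, beside 12.8%, 22.6% and 28.6%. The 2 crown parts differed in 0 of 12 tests of members, also at an unadjusted p under 0.05 in edgeR, beside 0.304%, 0.023% and 1.62% of all genes. Top crown against root had 1, 2 and 3 of 4, beside 10.9%, 20.3% and 15%, and bottom crown against root 2, 2 and 3 of 4, beside 9.12%, 24.8% and 18%.

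The balance within each pair was read as a ratio of counts in the same library, which needs no scaling between libraries. In control leaf gi1 had 28.9 times the counts of gi2 (log2 ratio 4.85 ± 0.46, SD, n = 3), and gi2 counts were 3.95%, 1.93% and 3.89% of gi1 counts. Whole-plant chilling brought the ratio to 4.55 (log2 2.19 ± 0.14) and shoot-only chilling to 3.92 (1.97 ± 0.12), with gi2 at 20% to 27.3% of gi1 counts in the 6 cold-leaf libraries. Reads shared between near-identical paralogs cannot be separated in these counts, so each gene of a pair is uncertain to that degree, but gi2 counts as low as 1.93% of gi1 bound how far gi1 reads could have been counted as gi2 in that library. In top crown the ratio went from 16.3 in control to 6.41, 10.5 and 6.57 under whole-plant, shoot-only and root-only chilling, and in bottom crown from 15.0 to 5.07, 7.55 and 4.99. In root it was 6.06 in control and 5.73, 3.24 and 7.78 under the same conditions. Of these 12 comparisons with control, 9 had no overlap between libraries, each a fall in the gi1 to gi2 ratio. Comparisons within a tissue shared its control libraries. The share of other gene pairs without overlap was not computed, so the count does not set this pair apart.

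cca1 and lhy, in contrast, shifted toward cca1 under shoot-only chilling outside the leaf. The cca1 to lhy ratio went from 0.443 to 1.12 in top crown, from 0.535 to 1.32 in bottom crown and from 1.47 to 2.73 in root, with no overlap between libraries in any of the 3. Root-only chilling in top crown gave a shift the same way, to 0.790, also without overlap. In leaf it went the other way, from 0.301 in control to 0.213 under whole-plant and 0.212 under shoot-only chilling, also without overlap. Summed counts of the morning pair relative to the GIGANTEA pair were 2.84 in control leaf and 0.469, 0.557 and 1.77 under whole-plant, shoot-only and root-only chilling. In bottom crown that ratio went from 1.07 to 0.346, 0.166 and 0.208 and in top crown from 0.808 to 0.296, 0.220 and 0.284, without overlap in the 6 comparisons. In root it was 0.611 in control and overlapped with control throughout. Comparisons of these ratios within a tissue also shared its control libraries. The share of other gene pairs or sums without overlap was not computed, so these counts do not set the ratios apart. A two-sided exact permutation test gave p = 0.1 for each ratio without overlap, the smallest value 3 against 3 libraries allows, or 0.1565 after Benjamini-Hochberg adjustment over the 36 comparisons, so no ratio could pass the threshold.

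**Figure D4:**
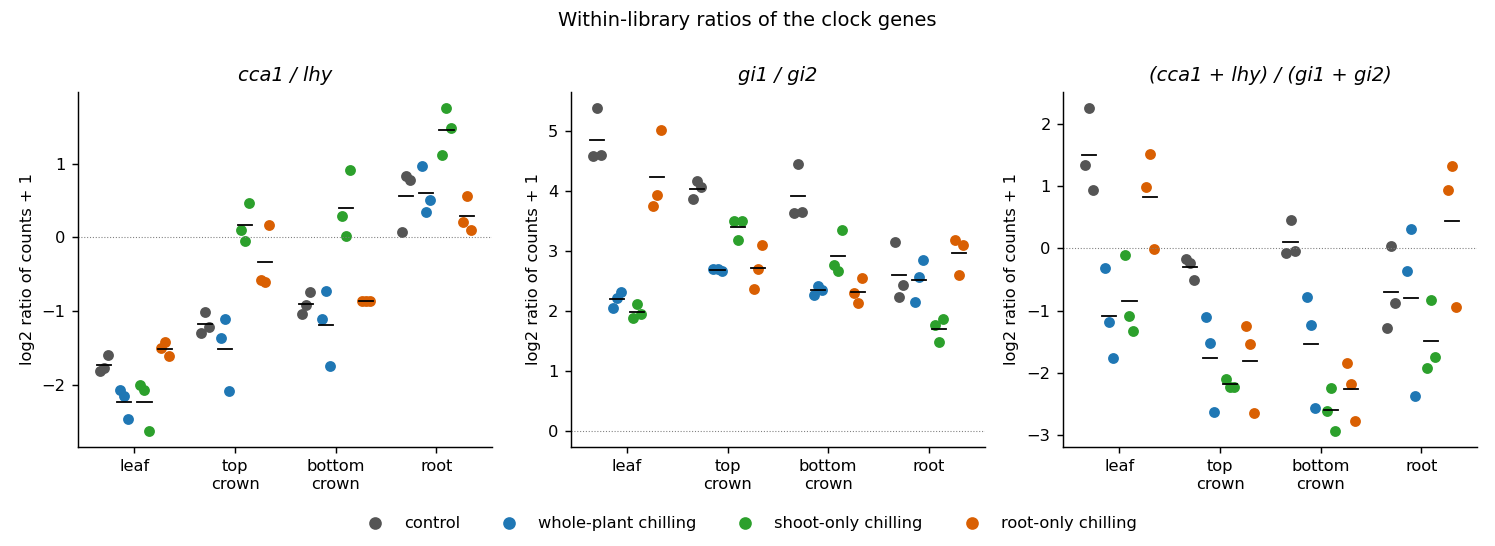
Log2 ratio of counts within each library (vertical axis) for cca1 to lhy, gi1 to gi2, and the summed morning pair to the summed GIGANTEA pair, by tissue and condition (horizontal axis), with points for libraries and bars for group means. The gi1 to gi2 ratio in leaf lies at a mean of 4.85 in control and at 2.19 and 1.97 in the 2 conditions with a cold leaf.

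Across the 16 group means of log2 CPM, the pattern of gi1 was closer to that of gi2 than lhy was to cca1. Pearson's r was 0.785 for gi1 with gi2 and 0.609 for cca1 with lhy. Of 16128 other genes ranked by likeness, gi2 came 60th for gi1, while lhy came 1610th for cca1. These values are descriptions over groups that share tissues and scaling. The gene most like cca1 was Zm00001d046679 (r = 0.927), that most like lhy Zm00001d029378 (r = 0.962), that most like gi1 Zm00001d013781 (r = 0.891) and that most like gi2 Zm00001d007445 (r = 0.939). Zm00001d007445 averaged 0.239 CPM in control leaf, 209.1 CPM under whole-plant and 205.8 CPM under shoot-only chilling, and Zm00001d029378 averaged 413.1 CPM in control leaf and 283.3 CPM in both cold-leaf conditions.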

How the data were processed

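Per the labels' protocols, total RNA was extracted with Trizol and 3′ libraries were made with a QuantSeq forward kit. The submitters' processing notes name STAR and edgeR without versions; the sources used here do not give the build, counting step, strand setting or treatment of multiply mapped reads. The authors deposited whole-number read counts per identifier for each of 48 libraries, which every test used. The authors also deposited per-tissue tables of CPM, a scaled signal: each column was the matching count times 1 constant (relative deviation at most 3.3e-09), so they served only as a check.

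The members and lists were chosen with earlier results of these data known. The identifiers named beside the 4 genes are, for each, the gene with the highest Pearson correlation over the 16 group means of log2 CPM (prior count 2), among genes with at least 10 CPM in a group. Lists of other clock genes and tissue markers could not be filled, since the name table matched 0 of 44146 nuclear identifiers.

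Each tissue's 12 libraries were fitted with edgeR 4.0.16 in R 4.3.3: filterByExpr, TMM scaling, trended dispersion, robust quasi-likelihood fit of 4 condition means. Tissues were compared in 1 fit of 48 libraries (21720 genes tested). The SE is that implied by the F value. Ratios used counts plus 1, with permutations enumerated in Python 3.11.15 with numpy 2.4.6 and the adjustment from statsmodels. Replicates differed by more than counting noise (chi-square per degree of freedom 3.73 to 34.7 over 48 pairs), so none was merged. Data were simulated from the mean levels and library sizes of leaf, with 1 assumed dispersion for all genes. Of 200 genes changed 2-fold, 45% were recovered with 5 false calls. For the leaf against root interaction, fitted on leaf and root libraries alone, 4.5% were recovered with 0 false calls. The assumed dispersion was not estimated from these libraries, so these shares do not measure the power or error rate of the tests reported. Alternatives were DESeq2 1.42.0, library size alone, no filter, other sets of libraries, a replicate block and each library left out. When 1 library was left out of the fit of 48, the dispersion trend of the full fit was reused. Those refits were not planned in advance, nor was leaving out all libraries numbered 3. Same-numbered libraries were taken as paired where the deviations of all 3 pairs from their group means correlated at over 0.1. Within tissues this held for 2 of 24 comparisons, whole-plant against root-only chilling in bottom crown (0.109 to 0.140) and whole-plant against shoot-only chilling in root (0.128 to 0.187). Across tissues it also held for 2 of 24. These were leaf and top crown under root-only chilling (0.118 to 0.228) and the 2 crown parts under shoot-only chilling (0.112 to 0.33). The main fit of 48 libraries treated all libraries as independent.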

Additional observations from a re-analysis of the deposited data

Results flagged for a closer look

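Of the 72 tests of a member's response between tissues, 24 passed with edgeR's quasi-likelihood test and Benjamini-Hochberg adjustment, and each is listed because the response itself differed between 2 tissues. In the same contrasts 0.023% to 33.5% of all genes tested were called. All values are differences in log2 change from control, the first tissue minus the second. No group had the 4 libraries that a search for outlying samples needs.

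For gi2 the differences from root were 3.43, 3.37 and 1.48 in leaf, 2.16, 1.21 and 3.13 in top crown, and 2.69, 1.98 and 3.75 in bottom crown, under whole-plant, shoot-only and root-only chilling. Leaf differed from top crown in gi2 by 2.16 under shoot-only and -1.66 under root-only chilling, and from bottom crown by 1.40 and -2.27.

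For gi1 the differences from root were 1.43 in leaf under shoot-only chilling, 1.44 and 1.43 in top crown under shoot-only and root-only chilling, and 1.19, 1.90 and 1.81 in bottom crown under the 3 conditions. Leaf differed from bottom crown in gi1 by -1.26 under root-only chilling. For lhy the differences from root under root-only chilling were -1.40 in leaf, -1.42 in top crown and -1.61 in bottom crown, and for cca1 the difference of leaf from root under whole-plant chilling was -1.76.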

How the results depend on the processing

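Of 912 recomputed comparisons of a member with control, 16 crossed the threshold, as did 64 of 912 between chilling conditions, 68 of 1080 between responses of tissues and 11 of 216 between tissues in control. The sign turned in 21, 32, 39 and 17 of them, in that order, and among called differences in 2, both of gi1 in control leaf. The ratios could pass the threshold under no setting, so their test says nothing on stability. With library size alone the median log2 change of all genes against control moved to between -0.35 (root, whole-plant) and 0.48 (leaf, root-only), and no called change of a member from control turned or was lost. With library size alone gi1 in warm leaf over a chilled root became called (0.80), and in control leaf gi1 turned to -0.064 and gi2 to -0.81 (called) against top crown, and to -0.0904 and -1.02 (called) against bottom crown. With just the 6 libraries compared, gi2 in leaf under root-only chilling was not called (0.92), while cca1 under shoot-only chilling was called in bottom crown (-0.52) and root (-0.87) and lhy under root-only chilling in bottom crown (-0.55) and root (1.04). Fits of the compared groups alone called cca1 (-0.72) and lhy (-0.43) different between the crown parts in control and cca1 between leaf and root (0.70), and lost the whole-plant response differences of cca1 between leaf and root (-1.68) and of gi1 between bottom crown and root (1.21). Those fits gained response differences of leaf against top crown for gi2 under whole-plant (1.28), cca1 under shoot-only (-1.34) and gi1 under root-only chilling (-0.87). With library size alone the response differences from root were lost for cca1 in leaf (-1.50) and lhy in top crown (-1.55). That scale gained response differences for gi2 in leaf against top crown under whole-plant chilling (1.45). It also gained them for gi1 in leaf against root under whole-plant (1.05) and root-only chilling (0.95). With all 48 libraries in 1 fit lhy in root under root-only chilling was called (1.05), and calls between chilling conditions were lost for lhy in leaf (-0.77 and -0.63 against root-only) and top crown (-1.04, shoot-only against root-only), gi1 in leaf (0.60, shoot-only against root-only), cca1 in top crown (-0.79, whole-plant against root-only) and gi2 in bottom crown (0.57, whole-plant against shoot-only, also lost at 0.48 with library size alone). The same fit gained calls in root for cca1 (1.07) and gi1 (0.71), whole-plant against shoot-only, and for gi2 (0.83), whole-plant against root-only. Leaving out 1 library, or all numbered 3, gave -1.15 to -0.74 for lhy in leaf under shoot-only chilling, 0.65 to 1.28 for gi2 in leaf under root-only chilling, -0.69 to -0.26 for cca1 in bottom crown under root-only chilling (called without whole-plant replicate 3) and 0.89 to 1.28 for lhy in root under root-only chilling (called without whole-plant replicate 2). The cause of these moves was not tested.

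Same-numbered libraries met the rule for pairing in 2 of 24 comparisons within tissues and in 2 of 24 across tissues. The correlation of their deviations ran from -0.25 to 0.35 (median 0.08) over 72 pairs within a tissue. Over 72 pairs across tissues it ran from -0.27 to 0.33 (median 0.04). Within tissues, 38 of 48 libraries correlated best on average with their own number, so missing the rule does not show that the replicate number had no effect. The main tests did not include that number. The replicate block called lhy under root-only chilling in bottom crown (-0.59) and root (0.995) and cca1 under shoot-only chilling in root (-0.80). It changed 5 of 48 calls between chilling conditions, gaining lhy in bottom crown (0.62) and root (-0.88) and gi2 in root (0.83), all whole-plant against root-only, and cca1 in root, whole-plant against shoot-only (0.87), and losing gi2 in bottom crown, whole-plant against shoot-only (0.55). It gained 6 of 72 calls between responses, under whole-plant chilling gi2 for leaf against top crown (1.29), lhy for leaf against bottom crown (-1.18) and root (-1.35) and gi1 for leaf against root (0.92), and under root-only chilling gi1 for leaf against top crown (-0.91) and cca1 for bottom crown against root (-1.29). No other call of a member changed with the block.

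Counts of all genes called moved by over 1.5 times in 65 of 780 recomputations. Whole-plant against shoot-only chilling in leaf went from 11 genes to between 0 and 96. Against control, root went from 5515, 4196 and 1435 genes (whole-plant, shoot-only, root-only) to as few as 2655, 1609 and 419 without libraries numbered 3, and to as many as 7666, 6348 and 2516. On leaving out the same libraries, shoot-only chilling fell from 4235 to 2074 genes in top crown and from 4912 to 1709 in bottom crown, and whole-plant chilling from 6577 to 4044 in bottom crown. Differing responses of the crown parts went from 66, 5 and 351 genes to between 23 and 181, 2 and 30, and 189 and 659. Of direct comparisons, root whole-plant against root-only chilling went from 2640 to between 809 and 4509 genes. Depth limits gi2 in control leaf, which rests on 4 to 17 counts.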
